A study of Mus musculus with 8 samples.

Results

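Autophagy core and lysosome genes are 30 genes that were picked by symbol: 16 genes of the machinery that builds the autophagosome, 8 lysosomal hydrolases and activators, 3 lysosomal membrane proteins, 2 transcription factors of the TFEB type and Ccpg1, a receptor for the autophagy of endoplasmic reticulum (ER). The 30 genes and the other lists below were chosen with earlier results of these data known. Shares set against all genes therefore describe the lists and are no test. All 30 genes are among the 24413 symbols counted, and all 30 passed the filter on low counts that left 9904 genes for the test. Their transcripts were counted in mouse plasmablasts, which are short-lived, dividing cells that secrete antibody and arise from activated B cells. B220+ spleen cells of C57BL/6J mice were cultured with 25 µg/ml lipopolysaccharide (LPS) for 4 days, and CD22-CD138+ cells were then sorted. In the Jagn1 knockout group (4 libraries) the mice were Jagn1fl/fl Mb1Cre+, so that Cre, driven in the B lineage by the Mb1 (Cd79a) locus, deletes Jagn1, which encodes an ER membrane protein. In the control group (4 libraries) the mice were Jagn1fl/fl and no Cre is listed, so the loss of Jagn1 and the presence of Cre cannot be told apart. The design gives 4 mice per genotype, and mouse ages are not stated in what was used here.

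In autophagy a membrane closes around cytoplasm or an organelle and fuses with the lysosome, where acid hydrolases digest the load. A kinase complex around ULK1 starts the process, a lipid kinase complex with Beclin 1 and the WIPI proteins marks the growing membrane, and a pair of ubiquitin-like conjugation systems attaches ATG8 proteins (the LC3 and GABARAP families) to it. TFEB and TFE3 switch on many lysosome and autophagy genes. In plasma cells autophagy is known to limit the size of the ER and to support long survival.

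Each library held 5882912 to 10066661 counts, and a count of 0 allowed up to 0.298 to 0.510 CPM (counts scaled to library size in the usual way) at a floor of 3 counts, counting error only. This floor uses the raw totals, and all other CPM values use TMM-scaled totals. Jagn1 stood at 0.120 to 0.269 CPM in knockout libraries (1 to 2 counts, under that floor) and 2.23 to 9.64 CPM in control libraries (16 to 99 counts), so each library matched its label. The sorted cells carried plasmablast markers, with a summed level of 21016 to 27023 CPM over 8 genes in knockout and 26886 to 33992 CPM in control libraries. Most of this sum was Mzb1 (15255 to 22220 CPM in knockout and 19655 to 21996 CPM in control libraries), while Sdc1 was at 16.8 to 23.3 and 33.0 to 56.7 CPM. Of the 8 plasmablast genes, Sdc1, Slamf7, Tnfrsf17 and Jchain were lower in the knockout (edgeR adjusted p = 0.00635, 0.000553, 0.0105 and 0.0122), and the part of this in the results was not tested. The 7 markers of earlier B cells summed to 469.5 to 583 CPM in knockout and 438 to 609 CPM in control libraries, and none of the 6 tested was called. Most of that sum was Ms4a1 (318 to 436 CPM in knockout and 317 to 442 CPM in control libraries). Macrophages are rich in cathepsins, but the 13 macrophage and myeloid markers summed to 3.93 to 5.53 CPM in knockout and 2.90 to 11.8 CPM in control libraries, none passed the filter, and Lyz2, Cd14, C1qb, S100a8 and S100a9 were at 0 in all 8 libraries. The sum over 8 T and NK cell markers was 3.49 to 6.95 CPM in knockout and 7.10 to 12.4 CPM in control libraries, that over 6 dendritic cell markers 63.7 to 97.2 CPM in knockout and 65.6 to 108 CPM in control libraries, and that over 6 red cell markers at most 0.240 CPM in knockout and 0.139 CPM in control libraries, with no gene of these lists called. Nearly all of the dendritic cell sum was Xcr1 (58.8 to 90.1 CPM in knockout and 61.1 to 105 CPM in control libraries), a gene singled out after its values were seen. Control replicates 1 and 4 stood apart: their root mean square distance to the mean of the control group was 0.594 and 0.581 (log2) over all genes, while the same distance to the own group was 0.324 to 0.432 in the remaining libraries. Over the 30 genes it was 0.449 and 0.411 in these 2 libraries and 0.135 to 0.312 in the others.

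Of the 30 genes, 1 rose in the knockout and none fell. That gene was Ctsd, which encodes the lysosomal protease cathepsin D. The count is to be read against 5.74% of all 9904 genes called by edgeR's quasi-likelihood test at an adjusted p under 0.05, of which 2.54% of all genes were higher and 3.19% lower. The 30 genes had fitted log2 fold changes (knockout over control) from -0.49 to 0.77, with a median of 0.19, against a median of -0.0096 over all genes, and 20 of the 30 (66.7%) were fitted above 0, against 48.7% of all genes. At an unadjusted p under 0.05 there were 8 higher and 1 lower (9 of the 30, against 18% of all genes). In bulk libraries of sorted cells, fewer cells of a type and less RNA per cell cannot be told apart.

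The intervals limit how far the other genes can have moved. For 24 of the 29 genes that did not pass, the 95% interval of the fold change lay wholly within 2-fold in either direction, and 5 others (Gabarapl2, Atg13, Atg7, Mcoln1 and Ctsl) had an interval that reached beyond it. Over all genes tested, 60.2% had an interval within 2-fold. DESeq2 called 3 of the 30 (9.02% of all genes) and limma-voom with sample weights called 6 (10.8% of all genes). Without control replicate 4 the count was 4 (8.88% of all genes), without control replicate 1 it was 2 (8.12%), and without both it was 3 (8.76%). Ctsd was among those called each time, and the others were Hexa, Ctss, Atg13, Wipi2 and Map1lc3b in various combinations.

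**Figure D1:**
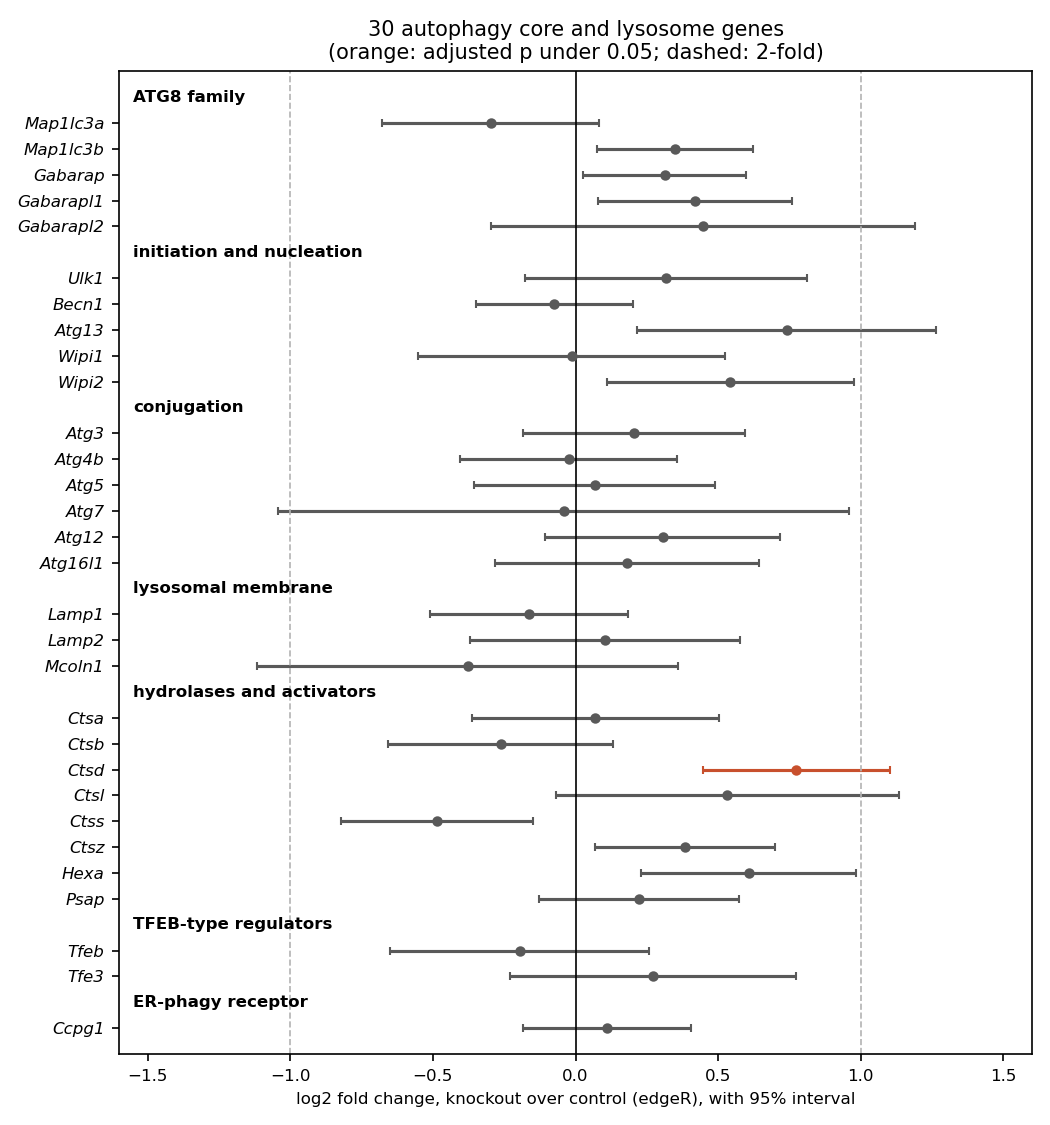
Fitted log2 fold change of each of the 30 genes in Jagn1 knockout over control plasmablasts, with its 95% interval from edgeR's fit (n = 4 libraries a group), grouped by role; orange marks an adjusted p under 0.05 and dashed lines mark 2-fold. Ctsd, at 0.77, is the gene in orange, and 20 of the 30 points lie to the right of 0.

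The lysosomal hydrolases held the gene that rose and the gene with the lowest fitted value. Ctsd had 1116, 1133, 1149 and 912 CPM in knockout replicates 1 to 4, against 695, 729, 623 and 474 CPM in control replicates 1 to 4. Every knockout library lay above every control library, as for 6.45% of all genes. The means were 1077 ± 111 CPM in the knockout and 630.2 ± 113 CPM in the control (SD, n = 4 each), a 1.71-fold rise with a 95% interval of 1.36 to 2.15 and a log2 fold change of 0.77 ± 0.15 (SE, edgeR adjusted p = 0.00654). Ctsd passed in all 17 alternative analyses, with log2 fold changes from 0.65 to 0.85. Ctsd lies on chromosome 7 from 142375911 to 142388038 on the minus strand, with 9 exon blocks (GRCm38, GENCODE M21), and shares 808 exon bases on the same strand with the gene model Gm49369, which is not among the symbols used here, so reads from either cannot be told apart.

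The promoter of Ctsd is shown because it is the gene of the set that passed, and because TFEB-type factors are known to bind an element built around CACGTG. The window runs from 250 bases before to 50 bases after the start of transcription (RefSeq, GRCm38.p6, chr7:142387778-142388077, minus strand), and capitals mark the letters CACGTG.
Ctsd promoter: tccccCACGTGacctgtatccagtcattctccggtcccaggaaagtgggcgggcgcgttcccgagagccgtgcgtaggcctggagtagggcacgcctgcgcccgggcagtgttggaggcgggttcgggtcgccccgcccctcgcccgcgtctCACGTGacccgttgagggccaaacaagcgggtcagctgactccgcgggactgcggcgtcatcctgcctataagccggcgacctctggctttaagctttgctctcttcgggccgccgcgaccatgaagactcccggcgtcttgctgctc
CACGTG, which reads the same on both strands, occurs at positions -245 and -98 relative to the RefSeq start. GENCODE begins the gene further upstream, at 142388038 inside this window, so the positions depend on the annotation. Windows were found for 25 of the 30 genes, and 8 of them held CACGTG (Atg3, Atg5, Atg7, Ctsa, Ctsd, Ctsl, Lamp1 and Mcoln1). The 25 genes had 30 windows, of which 8 (26.7%) held CACGTG, against 7.15% of all 32851 promoter windows of the same length. That share describes the promoters and says nothing about the knockout. Of these 8 genes, Ctsd passed the test, while the log2 fold changes of the other 7 ran from -0.38 for Mcoln1 to 0.53 for Ctsl. The longer palindromic form of this element was in 0 member windows and in 0.326% of all windows. TGATGNAA, the core of the element that ATF4 and CHOP are known to bind, searched on both strands, was in 1 member window, that of Ctsl, and in 3.97% of all windows.

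Ctss encodes cathepsin S, a cysteine protease that trims the invariant chain of MHC class II in B cells and other antigen-presenting cells. It had 506, 468, 549 and 376 CPM in knockout replicates 1 to 4, against 766, 582, 751 and 562 CPM in control replicates 1 to 4. Every knockout library lay below every control library (6.64% of all genes), yet the log2 fold change of -0.49 ± 0.16 (SE; fold 0.714, 95% interval 0.566 to 0.901) did not pass, with an edgeR adjusted p of 0.0916. It passed with DESeq2 (adjusted p = 0.0449), with limma-voom (0.0242), with control replicate 4 left out (0.0247) and with control replicates 1 and 4 left out together (0.0379), over a range of 0.0242 to 0.251 in the alternatives. The ratio of Ctsd to Ctss counts in the same library, computed after both were seen and given with no test, was 2.21, 2.42, 2.09 and 2.42 in knockout replicates 1 to 4 and 0.908, 1.25, 0.831 and 0.843 in control replicates 1 to 4. A ratio shows only that the pair differed unequally.

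Hexa encodes the alpha subunit of beta-hexosaminidase, which removes sugars from gangliosides. It had 78.0, 85.7, 78.7 and 82.5 CPM in knockout replicates 1 to 4, against 36.9, 55.9, 66.2 and 54.3 CPM in control replicates 1 to 4. The groups did not overlap, the knockout libraries lay close together and control replicate 1 was the lowest of all. The log2 fold change of 0.61 ± 0.18 (SE; fold 1.52, 95% interval 1.17 to 1.98) had an edgeR adjusted p of 0.0591. It passed with DESeq2 (adjusted p = 0.0240), with limma-voom (0.0290), without the count filter (0.0485) and without control replicate 4 (0.0484), in a range of 0.0240 to 0.185.

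The remaining hydrolases and activators did not pass. Ctsl, for the cysteine protease cathepsin L, had 14.6, 9.78, 9.31 and 9.02 CPM in knockout replicates 1 to 4, against 7.59, 5.64, 7.52 and 8.67 CPM in control replicates 1 to 4 (edgeR adjusted p = 0.346). The groups did not overlap, but the margin between them was small and knockout replicate 1 was well above the rest. Ctsz, for cathepsin Z, a carboxypeptidase, averaged 160.4 ± 22.9 CPM in the knockout and 123 ± 11.5 CPM in the control (log2 fold change 0.38, adjusted p = 0.169). Psap, whose product is cut into the saposins that help to break down sphingolipids, averaged 318 ± 27.2 CPM in the knockout and 273 ± 60.6 CPM in the control (0.22, 0.530). Ctsa, for the carboxypeptidase cathepsin A, which also protects lysosomal neuraminidase and galactosidase, averaged 126 ± 23.3 CPM in the knockout and 120.0 ± 32.7 CPM in the control (0.07, 0.912). Ctsb, for the cysteine protease cathepsin B, averaged 41.0 ± 7.87 CPM in the knockout and 49.1 ± 6.71 CPM in the control (SD, n = 4 each; -0.26, 0.508). In these last 4 genes the groups overlapped. Cathepsins of the same catalytic class therefore had fitted values of both signs, from -0.49 for Ctss to 0.53 for Ctsl among the cysteine proteases. Summed over the 8 genes, the level was 2296, 2342, 2428 and 2091 CPM in knockout replicates 1 to 4 and 2020.2, 1963, 2022 and 1677 CPM in control replicates 1 to 4, most of it from Ctsd and Ctss.

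**Figure D2:**
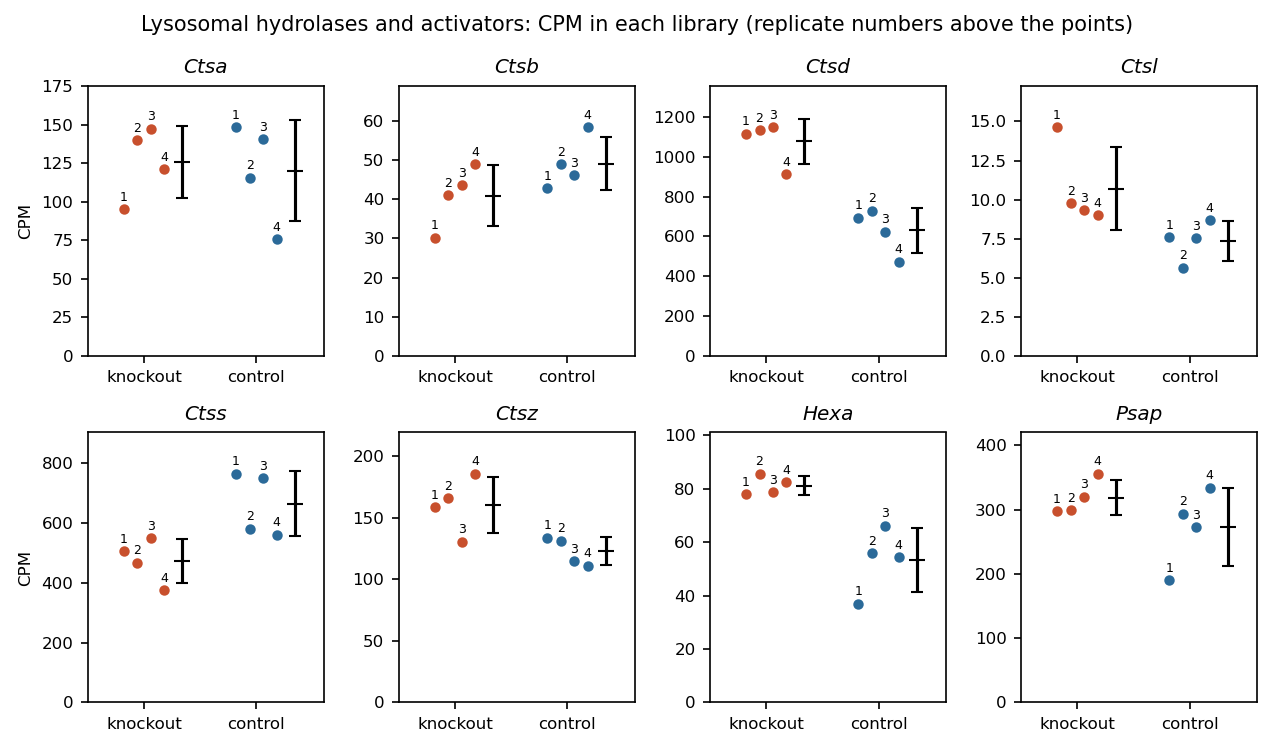
CPM of the 8 lysosomal hydrolases and activators in each library (points, with replicate numbers), Jagn1 knockout left and control right, with the group mean and SD as black bars (n = 4 each). Ctsd, Hexa and, by a small margin, Ctsl lie higher in every knockout library than in any control library, and Ctss lies lower.

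No lysosomal membrane gene of the set passed. Lamp1, which encodes a heavily glycosylated protein that lines the lysosomal membrane, averaged 370.3 ± 45.1 CPM in the knockout and 415 ± 83.8 CPM in the control (log2 fold change -0.16, 95% interval -0.51 to 0.18, edgeR adjusted p = 0.669). Lamp2, whose LAMP-2A form is the receptor of chaperone-mediated autophagy, had 123, 122, 129 and 104 CPM in knockout replicates 1 to 4, against 60.4, 103, 125 and 157 CPM in control replicates 1 to 4. The knockout values sat inside the span of the control values, and the log2 fold change of 0.10 (edgeR adjusted p = 0.870) was -0.10 without control replicate 1. Mcoln1, which encodes the lysosomal calcium channel TRPML1, was scarce, at 6.58 ± 1.28 CPM in the knockout and 8.59 ± 3.43 CPM in the control (SD, n = 4 each; log2 fold change -0.38, 95% interval -1.12 to 0.36, adjusted p = 0.633).

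Among the 16 autophagy core genes none passed. Their median log2 fold change was 0.25, and 11 were fitted above 0 (68.8%, against 48.7% of all genes). At an unadjusted p under 0.05 (edgeR), either direction, there were 5 of the 16 (31.2%, against 18% of all genes). All 5 were higher, and the share of all genes that were higher at that p was 8.30%, which counts 1 direction only. The ATG8 family carried 3 of those 5. Map1lc3b, which encodes LC3B, the protein most used to mark autophagosomes, had 219.9, 259, 242 and 249.6 CPM in knockout replicates 1 to 4, against 193, 178, 192 and 199 CPM in control replicates 1 to 4. All knockout libraries lay above all control libraries, by a narrow margin. The log2 fold change was 0.35 ± 0.13 (SE; fold 1.27, 95% interval 1.05 to 1.54) with an edgeR adjusted p of 0.145, and it passed with limma-voom (adjusted p = 0.0422, range over the alternatives 0.0422 to 0.373). A last stretch of 300 bases of a Map1lc3b transcript has matches of at least 95% identity over at least 75 bases in other transcripts, processed pseudogenes among them, so its count is uncertain.

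Gabarapl1, whose protein belongs to the GABARAP branch of the family, had 109.6, 104, 92.3 and 107 CPM in knockout replicates 1 to 4, against 67.8, 87.7, 90.7 and 63.0 CPM in control replicates 1 to 4. The groups touched but did not overlap, with knockout replicate 3 just above control replicate 3, and the log2 fold change of 0.42 ± 0.16 had an edgeR adjusted p of 0.165. Gabarap averaged 347 ± 37.9 CPM in the knockout and 279.5 ± 20.5 CPM in the control (log2 fold change 0.31, adjusted p = 0.222), with overlap. Gabarapl2 had 99.8, 85.5, 91.8 and 111 CPM in knockout replicates 1 to 4, against 26.7, 49.0, 85.4 and 123 CPM in control replicates 1 to 4. Its control libraries spread over a wider range than in any other ATG8 gene, and the 95% interval of its fold change ran from 0.815 to 2.28 (log2 fold change 0.45, adjusted p = 0.556). Its log2 fold change was 0.17 without control replicate 1 and 0.85 without control replicate 4 (adjusted p = 0.0613). Map1lc3a, which encodes LC3A, was the only ATG8 gene fitted below 0, at 51.3 ± 4.64 CPM in the knockout and 63.1 ± 14.1 CPM in the control (SD, n = 4 each; -0.30, adjusted p = 0.422). Summed over the 5 genes, the level was 825, 895, 828 and 819 CPM in knockout replicates 1 to 4 and 621, 650.3, 737 and 717 CPM in control replicates 1 to 4.

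**Figure D3:**
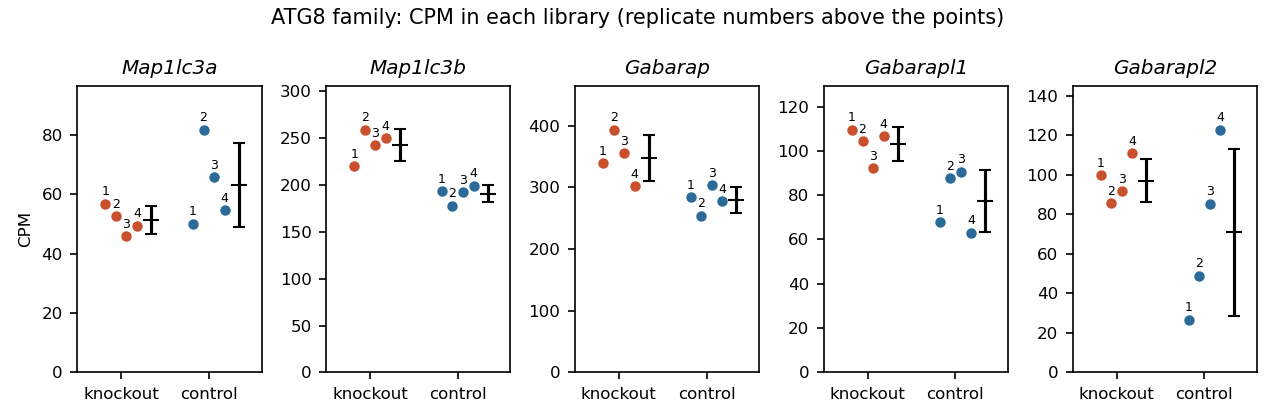
CPM of the 5 ATG8 family genes in each library (points, with replicate numbers), Jagn1 knockout left and control right, with the group mean and SD as black bars (n = 4 each). Map1lc3b and Gabarapl1 do not overlap between the groups, and the control values of Gabarapl2 run from 26.7 to 123 CPM.

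The genes that start autophagy and mark the membrane had mixed values. Atg13, a subunit of the ULK1 kinase complex, had 20.7, 18.8, 21.5 and 26.0 CPM in knockout replicates 1 to 4, against 10.4, 9.99, 12.3 and 19.1 CPM in control replicates 1 to 4. Only control replicate 4 reached into the knockout range. The log2 fold change of 0.74 ± 0.25 (SE; fold 1.67, 95% interval 1.16 to 2.40) had an edgeR adjusted p of 0.101, which was 0.0263 with limma-voom, 0.0106 when control replicate 4 was left out and 0.0160 when control replicates 1 and 4 both were, and ran up to 0.266 in the alternatives. Wipi2, which binds the lipid mark and brings in ATG16L1, had 42.0, 41.6, 53.6 and 49.1 CPM in knockout replicates 1 to 4, against 40.3, 23.4, 37.9 and 26.4 CPM in control replicates 1 to 4. The groups did not overlap, although control replicate 1 came near to the lowest knockout library. Its log2 fold change of 0.54 ± 0.20 had an edgeR adjusted p of 0.157, 0.0406 without control replicate 1 and 0.0458 with limma-voom, with a range of 0.0406 to 0.367.

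Ulk1, for the kinase itself, averaged 73.5 ± 15.9 CPM in the knockout and 58.9 ± 20.6 CPM in the control (log2 fold change 0.32, adjusted p = 0.527), with a log2 fold change of 0.14 without control replicate 1 and 0.54 without control replicate 4. Becn1, for Beclin 1, averaged 177 ± 6.79 CPM in the knockout and 187 ± 15.2 CPM in the control (SD, n = 4 each), and its interval was among the narrowest of the set, from 0.785-fold to 1.15-fold. Becn1 shares 3104 exon bases on the opposite strand with Cntd1 (counting strand not given in the sources used here), so reads from either may be mixed. The same limit holds for other genes of the set. Among them, Ctsl shares 1742 exon bases on the opposite strand with Gm47123 and 395 on the same strand with the pseudogene Gm49230. Ctsb shares 774 on the opposite strand with Fdft1, and Gabarapl1 shares 570 on the opposite strand with 1700101I11Rik. Wipi1 averaged 12.7 ± 2.88 CPM in the knockout and 12.9 ± 2.46 CPM in the control (-0.01, adjusted p = 0.989), so the 2 WIPI genes of the set had different fitted values, a difference that was not tested.

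None of the 6 conjugation genes passed, and none had an unadjusted p under 0.05. Their log2 fold changes lay between -0.04 for Atg7, the E1-like enzyme of both conjugation systems, and 0.30 for Atg12, the ubiquitin-like protein that is joined to ATG5. Atg12 averaged 29.7 ± 4.15 CPM in the knockout and 24.1 ± 3.63 CPM in the control. Atg3, the E2-like enzyme for ATG8 proteins, averaged 39.8 ± 2.85 CPM in the knockout and 34.6 ± 6.84 CPM in the control (0.20). Atg16l1, which carries the ATG12-ATG5 pair to the membrane, averaged 19.7 ± 2.24 CPM in the knockout and 17.4 ± 3.56 CPM in the control (0.18). Atg5 averaged 37.6 ± 8.19 CPM in the knockout and 35.9 ± 5.16 CPM in the control (0.07). Atg4b, the protease that processes ATG8 proteins, averaged 31.2 ± 3.57 CPM in the knockout and 31.8 ± 3.45 CPM in the control (SD, n = 4 each; -0.02). Atg7 had 34 to 65 counts in knockout and 14 to 104 counts in control libraries, an SD of 0.377 (log2) in the knockout and 1.10 in the control, and an interval of 0.486-fold to 1.94-fold.

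The regulators showed no call. Tfeb averaged 43.6 ± 9.39 CPM in the knockout and 50.0 ± 12.6 CPM in the control (log2 fold change -0.20, edgeR adjusted p = 0.704). Tfe3 averaged 21.3 ± 2.99 CPM in the knockout and 17.7 ± 4.81 CPM in the control (SD, n = 4 each; 0.27, 0.611). TFEB and TFE3 are controlled mainly by their phosphorylation and place in the cell, which a count of transcripts does not report. Ccpg1, the ER-phagy receptor that ER stress is known to induce, had 206.5, 224, 251 and 258 CPM in knockout replicates 1 to 4, against 226, 199, 245 and 199 CPM in control replicates 1 to 4. The groups overlapped, and the interval of 0.880-fold to 1.32-fold around a log2 fold change of 0.11 did not reach a 1.5-fold change in either direction. Ccpg1 shares 3213 exon bases on the same strand with the gene model Gm44503 and 2170 exon bases on the opposite strand with Pigb.

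The spread among control libraries was wider than among knockout libraries for 21 of the 30 genes, with a median SD of 0.178 (log2) in the knockout and 0.290 in the control. The same held for 71.6% of all genes. In Gabarapl2, Ulk1, Lamp2, Ctsb and Psap control replicate 1 was the lowest and control replicate 4 the highest of the control libraries, and in Atg3, Mcoln1, Ctsa, Ctss and Ctsz the order was the opposite. Together these were 33.3% of the 30 genes, against 37.8% of all genes. Control replicate 4 had the largest total and control replicate 2 the smallest, and what part depth or any other property of these libraries had in the spread was not tested.

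**Figure D4:**
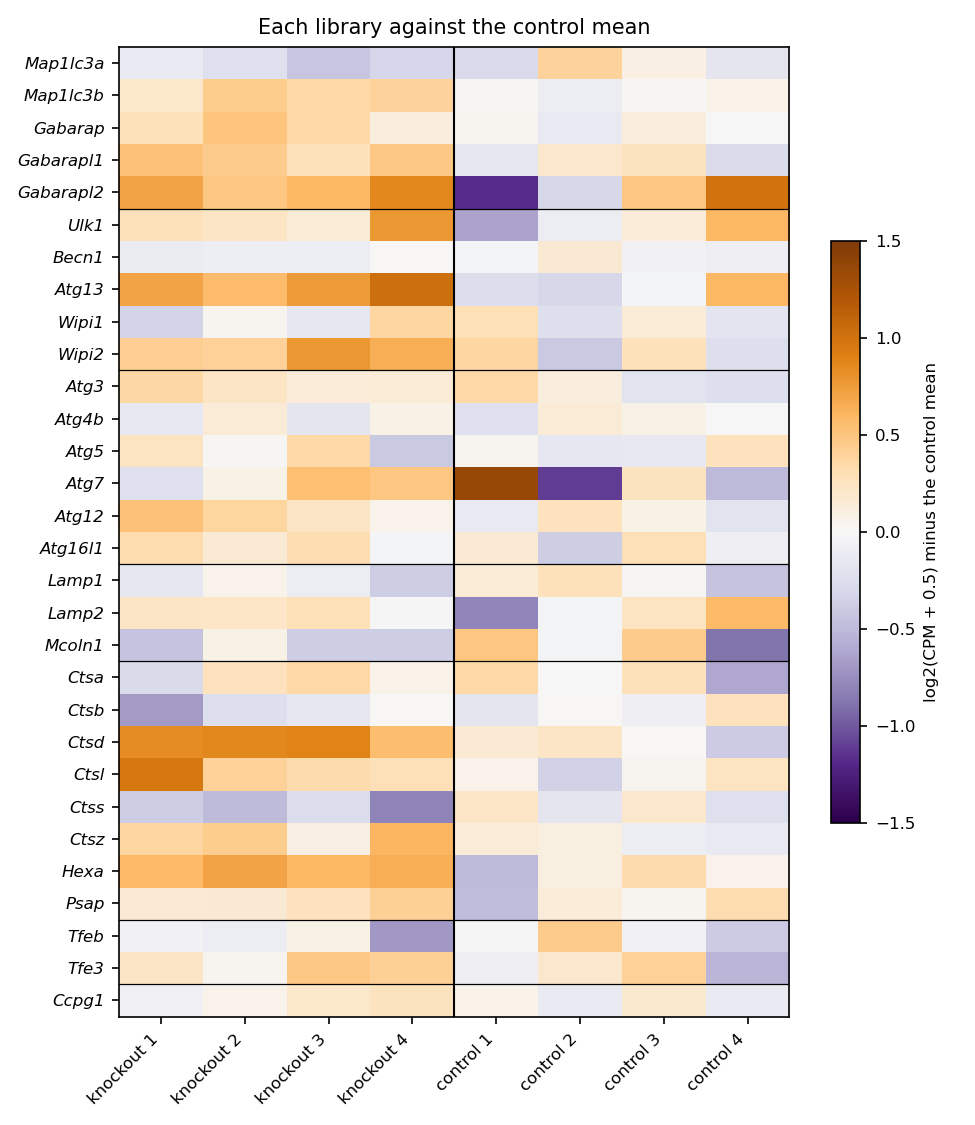
Each of the 30 genes (rows, grouped by role as in the plot of fold changes) in each library (columns, Jagn1 knockout left and control right), coloured by log2(CPM + 0.5) minus the control mean of that gene. Ctsd and Hexa are orange in all 4 knockout libraries, and Gabarapl2 and Lamp2 run from purple in control replicate 1 to orange in control replicate 4.

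Outside the 30 genes, 10 of 140 tested genes of the other autophagy and lysosome lists passed (7.14%, against 5.74% of all genes), 3 of them higher and 7 lower, a share near the background. Among 14 tested autophagy receptors, the adaptors that link a load to ATG8 proteins, 1 rose and 2 fell (21.4% called, against 5.74% of all genes). Sqstm1, which encodes p62, had 871, 924, 689 and 614 CPM in knockout replicates 1 to 4, against 218, 233, 211 and 187 CPM in control replicates 1 to 4, a log2 fold change of 1.87 ± 0.16 (SE, edgeR adjusted p = 8.82e-06). It stood far above every control library in all 4 knockout libraries. The ER-phagy receptors Fam134b and Rtn3 fell. Fam134b averaged 44.9 ± 2.39 CPM in the knockout and 66.4 ± 8.39 CPM in the control, and Rtn3 averaged 631 ± 36.3 CPM in the knockout and 859 ± 45.2 CPM in the control (SD, n = 4 each; edgeR adjusted p = 0.0461 and 0.0465). Of 24 tested genes of the remaining autophagy machinery 2 rose, Ulk2, a kinase related to ULK1 (log2 fold change 1.09 ± 0.28, adjusted p = 0.0348), and Wdr45, a WIPI-related lipid-binding protein gene (1.03 ± 0.27, 0.0370), and none fell (8.33% called, against 5.74% of all genes). Wdr45 shares 818 exon bases on the same strand with the gene model Gm45208, and Sqstm1 shares 580 on the opposite strand with Mrnip.

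Of 36 tested genes listed as hydrolases and activators outside the set, 4 fell and none rose. That was 11.1% called, against 5.74% of all genes called and 3.19% of all genes lower. Npc2 is counted in this list although it carries cholesterol and is not a hydrolase. Npc2, which hands cholesterol to the lysosomal membrane, had 590.5, 667, 708 and 559 CPM in knockout replicates 1 to 4, against 1251, 1125, 1234 and 1031 CPM in control replicates 1 to 4 (log2 fold change -0.88 ± 0.13, edgeR adjusted p = 0.000920). Even the lowest control library was well above the highest knockout library. Ppt1, which removes palmitate from proteins, averaged 23.9 ± 2.92 CPM in the knockout and 54.2 ± 11.9 CPM in the control (-1.18 ± 0.20, 0.00182). Neu1, the lysosomal sialidase gene, averaged 68.6 ± 12.2 CPM in the knockout and 103 ± 9.89 CPM in the control (-0.58, 0.0454), and Gm2a, for the activator that presents the ganglioside GM2 to hexosaminidase, averaged 78.9 ± 8.22 CPM in the knockout and 122 ± 27.3 CPM in the control (SD, n = 4 each; -0.63, 0.0457). Of 15 tested genes of the vacuolar ATPase, the pump that acidifies lysosomes, 1 fell and none rose. That was 6.67% called, against 5.74% of all genes called and 3.19% of all genes lower, a share near the background. The gene was the accessory subunit gene Atp6ap1. It had 188, 186, 173 and 216 CPM in knockout replicates 1 to 4, against 365, 426, 425 and 337 CPM in control replicates 1 to 4 (-1.03 ± 0.14, edgeR adjusted p = 0.000365). The median log2 fold changes of the lists were -0.08 for the hydrolases, -0.07 for the vacuolar ATPase, 0.05 for the autophagy machinery and 0.32 for the receptors. At an unadjusted p under 0.05 (edgeR), 2 of the 36 listed hydrolases and activators were higher and 10 lower (33.3%, against 18% of all genes).

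No gene was called by edgeR among 15 other lysosomal membrane proteins, against 5.74% of all genes. None was called among 18 genes that control TFEB and mTORC1 at the lysosome, or among 18 genes of sorting to the lysosome. In these lists 2, 3 and 0 genes had an unadjusted p under 0.05 (13.3%, 16.7% and 0%, against 18% of all genes). The genes with the smallest p were Ctns, the cystine exporter gene (log2 fold change 0.93, adjusted p = 0.125), Foxo1 (-0.38, 0.144) and Rab7, for the GTPase of late endosomes (0.31, 0.283). Limma-voom called Foxo1 (adjusted p = 0.0361), and Ctns was called without control replicate 4 (0.0333), while their highest adjusted p in the alternatives was 0.358 and 0.345. Of 12 autophagy genes described as targets of ATF4 or CHOP in mouse cells, 9 belong to the 30. Sqstm1 was the gene of these 12 that passed (8.33%, against 5.74% of all genes). The median log2 fold change of the 12 was 0.25, against -0.0096 over all genes.

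Sqstm1, Npc2, Ppt1 and Atp6ap1 passed in all 17 alternatives, and the 6 remaining calls of these lists lay near the threshold and were lost when any of several libraries was left out. Their log2 fold changes kept their sign in every such fit, at 0.89 to 1.41 for Ulk2, 0.89 to 1.20 for Wdr45, -0.61 to -0.47 for Fam134b, -0.48 to -0.41 for Rtn3, -0.71 to -0.51 for Neu1 and -0.76 to -0.53 for Gm2a. The number of all genes called also fell without any 1 knockout replicate, to 270 to 410, against 568 with all libraries. When libraries were left out, Ulk2 and Wdr45 lost theirs without any 1 knockout replicate or control replicate 2 (adjusted p up to 0.104 and 0.128; Wdr45 also without control replicates 1 and 4, 0.0518), Fam134b and Rtn3 without any 1 knockout replicate or control replicate 2 or 3 (up to 0.179 and 0.172), Neu1 without knockout replicate 1, 2 or 3 or control replicate 2 or 3 (up to 0.165), and Gm2a without any 1 knockout replicate or control replicate 2, 3 or 4 (up to 0.176).

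**Figure D5:**
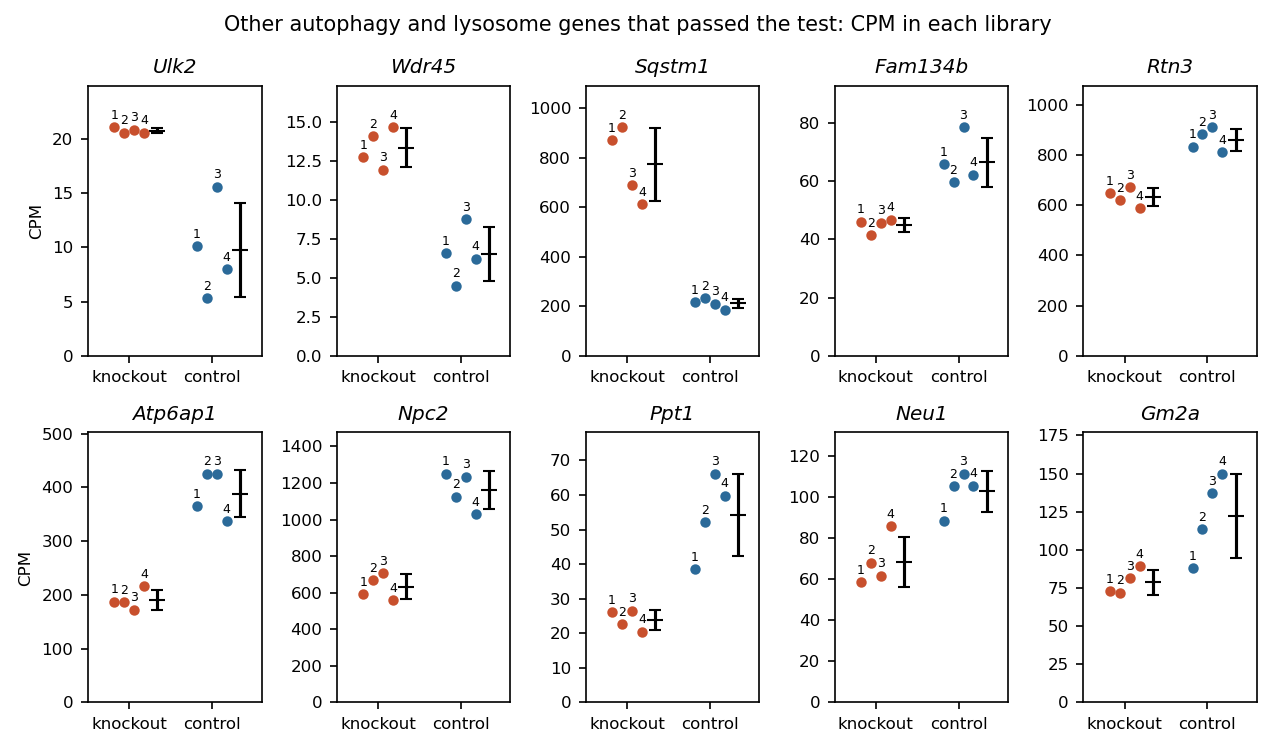
CPM of the 10 other autophagy and lysosome genes that passed the test in each library (points, with replicate numbers), Jagn1 knockout left and control right, with the group mean and SD as black bars (n = 4 each). Ulk2, Wdr45 and Sqstm1 are higher in the knockout, and the other 7 are lower.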

How the data were processed

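Sorted plasmablasts of 4 Jagn1 knockout and 4 control libraries, grouped by sample titles, were profiled with QuantSeq 3′ mRNA-Seq (FWD) from 500 ng of total RNA, per the labels' protocols. The deposited files hold raw read counts per symbol. The submitters' processing notes name TopHat2 2.1.1, BWA 0.7.12, HTSeq 0.6.1, SAMtools 1.3.1 and mm10 (roles, annotation, strandedness: not given in the sources used here). The kit reads transcript ends, so counts were not divided by gene length, and CPM here is on a per-transcript scale. Counts may include PCR copies.

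No row lacked a gene name (0 rows), and no pair of libraries within a group agreed within sampling noise (chi-square per degree of freedom 6.60 to 94.2). Genes were filtered with filterByExpr (minimum count 10, minimum total 15), scaled with TMM and tested with edgeR 4.0.16 (R 4.3.3; quasi-likelihood F-test, robust, group only, two-sided, Benjamini-Hochberg over 9904 genes, threshold 0.05). SE is the log2 fold change over the square root of F, and 95% intervals use the fit's degrees of freedom. For CPM, totals were scaled by TMM; log2 CPM added a prior count of 2. The common biological coefficient of variation came to 0.274. On simulated counts at the depths of these libraries (9724 genes, 200 changed) 19.4% of 1.5-fold, 47.8% of 2-fold and 86.4% of 4-fold changes were recovered. Of 105 calls 3 were false. The simulation gave both groups the same dispersion for each gene and set no library apart. In the data the control spread was the wider for 71.6% of all genes, so these rates may not hold here. Alternatives used DESeq2 1.42.0, limma-voom (limma 3.58.1), other scalings and filters, no robust estimation, a replicate block and left-out libraries.

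The 30 members and all other lists were chosen with earlier results of these data known. All members are named; from each other list up to 4 called genes with the smallest p, or the 1 with the smallest p, are named. Older symbols were matched through RefSeq, and positions come from GENCODE M21 (GRCm38). Trac, of the marker lists, is not analysed here.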

Additional observations from a re-analysis of the deposited data

Results flagged for a closer look

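In 4 of 60 groups of 4 libraries formed by the 30 genes, the highest or lowest library lay so far from its nearest neighbour, as a share of the group's range of log2 CPM, that it passed Dixon's 95% critical value for 4 samples; chance flags about 1 in 20 groups. Ctsd was at 912 CPM in knockout replicate 4, against 1116 to 1149 CPM in the other knockout libraries, and it was still above all control libraries. Ctsl was at 14.6 CPM in knockout replicate 1, against 9.02 to 9.78 CPM in the others. Mcoln1 was at 8.48 CPM in knockout replicate 2, against 5.77 to 6.03 CPM in the others. For Becn1, control replicate 2 held 209 CPM, and the 3 remaining control libraries 177 to 181 CPM. None of the other named genes was flagged.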

How the results depend on the processing

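The number of all genes called was 568, and 858 with DESeq2, 1070 with limma-voom, 901 without control replicates 1 and 4, and 270 to 892 when single libraries were left out. Of the 30 genes 1 was called, and 3 with DESeq2, 6 with limma-voom, 2 without the count filter, 3 without control replicates 1 and 4, and 1 to 4 when single libraries were left out. Fitted signs changed for 7 members, none of them called. When single libraries were left out, log2 fold changes ran from -0.17 to 0.10 for Wipi1, -0.092 to 0.029 for Atg4b, -0.032 to 0.20 for Atg5, -0.32 to 0.65 for Atg7, -0.10 to 0.31 for Lamp2 and -0.11 to 0.19 for Ctsa. Without control replicates 1 and 4 they were 0.044 for Wipi1, 0.57 for Atg7, -0.023 for Ctsa and -0.0047 for Tfe3, and Atg7 was at 0.47 with limma-voom. The causes were not tested. No pairing of libraries by shared replicate number was seen, but a check over 4 pairs cannot exclude a weak one. Deviations of same-numbered libraries correlated at -0.0034 to 0.0662 over the 4 pairs, and 2 of 4 knockout libraries correlated best with their own number. With the replicate number as a block 509 genes and 1 member were called, and Atg7 was at 0.25; the calls of Wdr45, Fam134b, Rtn3 and Neu1 were lost. Those of Fam134b and Rtn3 were also lost without the count filter, and that of Gm2a without robust estimation (adjusted p = 0.0503). The lowest count of a member in any library was 14.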
